A study of Mus musculus with 15 samples.

Results

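Il1rl1 encodes the receptor for the cytokine IL-33, and it is described here together with 9 genes of the signalling chain it belongs to. These are the receptor chains Il1r1, Il1rap and Il18r1, the ligand gene Il33, the adaptor gene Myd88, the kinase genes Irak1, Irak2 and Irak4, and the kinase gene Ripk2. The 10 genes were picked by symbol, and Il1rl1 was the reason for the choice because its level was higher with IL-17 in both precipitates. Its values with IL-17 against medium are therefore given as a description, without a test. All 10 genes were among the 25239 genes of the deposited tables, and all 10 passed the filter on low counts, as did 17835 genes in all.

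The RNA came from RNA immunoprecipitation and sequencing (RIP-seq) of ST2 cells, a mouse stromal cell line from bone marrow. Cells were stimulated for 3 h with IL-17 at 200 ng/mL or kept for 3 h in medium alone, and all were crosslinked with 1% formaldehyde before lysis. RNA was then recovered either with an anti-Arid5a antibody (Arid5a binds RNA) or with a mouse IgG2b, which served as the control. The groups are Arid5a precipitates after IL-17 (4 libraries), Arid5a precipitates in medium (4), IgG precipitates after IL-17 (3, numbered 2, 3 and 4) and IgG precipitates in medium (4). All libraries come from 1 cell line, the labels do not say whether replicates were separate cultures, and the p-values measure only the spread between these libraries. No library of unprecipitated RNA was analysed here, so the abundance of a transcript in the cells and its recovery by an antibody cannot be told apart from 1 group alone. Likewise, in bulk RNA, fewer cells that express a gene and less of its RNA per cell cannot be told apart.

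Receptors of the IL-1 family work in pairs: a ligand-binding chain such as the IL-1 receptor (Il1r1) or the IL-33 receptor ST2 (Il1rl1) recruits the shared accessory chain encoded by Il1rap. The receptor tails bind the adaptor MyD88, which assembles IRAK4 with IRAK1 and IRAK2, and these kinases pass the signal through the ubiquitin ligase TRAF6 to NF-kB and MAP kinases. Il18r1 encodes the binding chain for IL-18, and RIPK2 is the kinase that relays signals of the intracellular sensors NOD1 and NOD2 to the same downstream kinases. Il1rl1 gives rise to a membrane receptor and to a shorter secreted form that binds IL-33 without signalling. The ST2 protein and the ST2 cell line share only their name. IL-17 itself signals through another receptor, with the adaptor Act1 and TRAF6, to NF-kB and C/EBP factors, and stabilises many inflammatory mRNAs.

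Il1rl1 lies on chromosome 1 (GRCm38.p6, 40404864 to 40465418) in a row of related receptor genes, with Il1r1 (40222480 to 40316201) and Il1rl2 (40324589 to 40367555) before it. Il18r1 (40465552 to 40500854) begins 133 bases after the end of Il1rl1, and Il18rap follows at 40515362 to 40551707. RefSeq promoter windows of GRCm38.p6 were found for 9 of the 10 genes, Ripk2 being the one without. Il1rl1 has 2 of them, with transcription starts 10059 bases apart. Both starts lie inside the Il1rl1 gene model, and no window was found at the first base of that model, 40404864. The 250 bases before each Il1rl1 start are shown because Il1rl1 had the largest IL-17 difference of the set, a value that was not tested. The corresponding bases of Irak1 are shown because Irak1 was the only gene with a window to pass a test below. Capitals mark matches, on either strand, to the C/EBP-type motif TTGCNNAA, the GATA-type motif TGATAA and the NF-kB consensus.
Il1rl1 upstream start (chr1:40429320-40429569, plus strand): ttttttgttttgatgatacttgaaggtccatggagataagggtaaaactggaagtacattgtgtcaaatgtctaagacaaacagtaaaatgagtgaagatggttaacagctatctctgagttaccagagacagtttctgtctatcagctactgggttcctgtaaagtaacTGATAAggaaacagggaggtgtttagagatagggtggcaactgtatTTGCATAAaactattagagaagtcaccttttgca
Il1rl1 downstream start (chr1:40439379-40439628, plus strand): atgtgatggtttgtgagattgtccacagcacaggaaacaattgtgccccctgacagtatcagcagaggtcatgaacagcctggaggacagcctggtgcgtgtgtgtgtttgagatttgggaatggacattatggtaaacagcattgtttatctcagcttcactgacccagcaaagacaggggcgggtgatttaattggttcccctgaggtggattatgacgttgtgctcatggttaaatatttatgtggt
Irak1 (chrX:74023922-74024171, minus strand): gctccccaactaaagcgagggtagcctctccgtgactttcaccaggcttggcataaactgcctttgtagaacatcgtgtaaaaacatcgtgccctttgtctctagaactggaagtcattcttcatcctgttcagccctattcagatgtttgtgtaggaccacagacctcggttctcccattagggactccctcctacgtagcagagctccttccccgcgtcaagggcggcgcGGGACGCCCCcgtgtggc

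The bases before the upstream Il1rl1 start held TGATAA at 80 to 75 and a TTGCNNAA match at 34 to 27 bases before the start. The downstream Il1rl1 window held none of the motifs searched, which included the AP-1-type motif TGANTCA. Irak1 held a match to the NF-kB consensus at 18 to 9 bases before its start. Of 32851 RefSeq windows of the same length, 9.56% held TTGCNNAA, 7.94% TGATAA, 7.25% the NF-kB consensus and 6.75% TGANTCA. Among the 15 windows of the 9 genes, 3 held TTGCNNAA (in Il1rl1, Il1r1 and Il33), 1 TGATAA and 3 the NF-kB consensus (1 of Il1r1 and 2 overlapping windows of Irak1). No window of the 9 genes held TGANTCA. A match describes these letters only, and no binding was measured at these windows.

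Library totals lay between 939139 and 5713913 expected counts, the lowest being IgG medium 2. Within groups, log2 CPM (counts relative to the library total, scaled with TMM factors) of library pairs correlated with a Pearson r of 0.793 to 0.960 across genes, and the pairs with IgG medium 2 or IgG IL-17 4 were the lowest. Arid5a IL-17 4 also stood apart: 1492 olfactory and vomeronasal receptor genes, silent in most tissues, summed to 4062 CPM there, against 1408 to 1806 CPM in Arid5a IL-17 1 to 3 and 3234 to 4776 CPM in Arid5a medium libraries. The IgG libraries held 1986 to 3371 CPM on these genes. The 12 stromal markers, read as a check of the labelled cell type, summed to 17360 to 24888 CPM over the libraries. Col1a1, Col1a2, Vim and Cxcl12 were the highest of them, each with at least 1352 CPM in every library. Thy1 of the same list ran only from 0.21 to 15.7 CPM and Vcam1 from 5.62 to 47.2 CPM, and the rest lay between 60.7 and 601 CPM. Mast cell and basophil markers (9 genes), which would mark the cells best known for Il1rl1, summed to 4.79 to 14.8 CPM, and lymphocyte and type 2 innate lymphoid cell markers (9 genes) to 11.1 to 28.9 CPM. None of these markers was at 0 in all libraries, and the highest mast cell marker count in a library was 23 (Gata1).

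The Il1rl1 level was 3.12-fold higher with IL-17 than in medium in the Arid5a precipitate and 2.09-fold higher in the IgG precipitate. In Arid5a IL-17 libraries 1 to 4 it held 563, 562, 500 and 189 counts, which are 118, 128, 95.7 and 53.5 CPM, against 34.9, 29.7, 34.0 and 28.2 CPM in Arid5a medium libraries 1 to 4. Every IL-17 library was above every medium library, and Arid5a IL-17 4 was the lowest of its group. In IgG IL-17 libraries 2 to 4 it held 382, 327 and 186 counts, or 81.8, 115 and 89.0 CPM, against 39.7, 43.8, 54.2 and 44.2 CPM in IgG medium libraries 1 to 4. The IgG groups did not overlap either, as was the case in the higher direction for 4.27% of all genes tested, and the 4 medium libraries lay close together. The mean CPM was 98.8 ± 33.1 (SD, n = 4) in Arid5a IL-17, 31.7 ± 3.23 (n = 4) in Arid5a medium, 95.1 ± 17.2 (n = 3) in IgG IL-17 libraries and 45.5 ± 6.14 (n = 4) in IgG medium libraries.

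On the log2 scale, the Il1rl1 difference between IL-17 and medium was 1.64 ± 0.21 (SE of the fit) in the Arid5a precipitate and 1.06 ± 0.22 in the IgG precipitate, and their difference was 0.58 ± 0.31. Leaving out Arid5a IL-17 4 gave 1.84 in the Arid5a precipitate, and the other single removals gave down to 1.49. TMM scaling placed the 5394 well-expressed genes (average log2 CPM of at least 5) at a median log2 difference of 0.30 between IL-17 and medium in the Arid5a precipitate and of -0.04 in the IgG precipitate. With TMM factors from these genes alone, the Il1rl1 values were 1.31 and 1.09, and the difference between the precipitates was 0.21. The mast cell marker sum was 4.79 to 8.78 CPM in Arid5a IL-17 and 11.4 to 14.8 CPM in Arid5a medium libraries, and 6.22 to 13.7 CPM in IgG IL-17 and 7.86 to 11.9 CPM in IgG medium libraries. It was thus lower with IL-17 in the Arid5a precipitate and overlapped in the IgG precipitate, and its part in the Il1rl1 values was not tested.

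**Figure D1:**
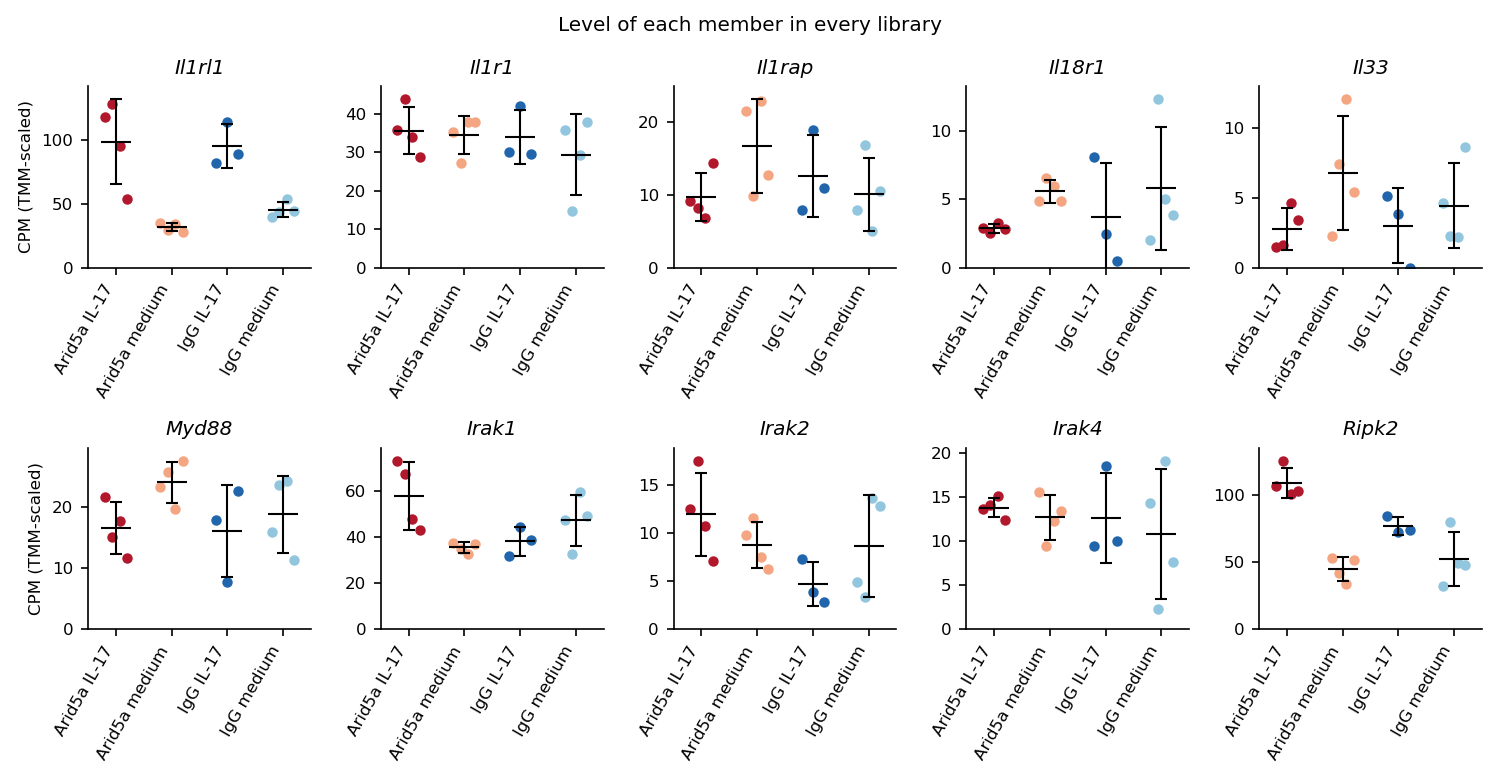
TMM-scaled CPM of the 10 genes in each of the 15 libraries (points), by group, with the mean and SD as bars (cut off at 0 where they reach below it). Il1rl1, Ripk2 and Irak1 are higher, and Il18r1 is lower, in all Arid5a IL-17 than in all Arid5a medium libraries. The 3 IgG IL-17 values of Il1rl1 (81.8, 89.0 and 115 CPM) lie above the 4 IgG medium values. Of all genes tested, 10.7% separated in the higher and 9.25% in the lower direction in the Arid5a precipitate. In the IgG precipitate 4.27% did so in the higher direction.

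The choice of Il1rl1 did not use the comparison of the antibodies, which asks whether the Arid5a antibody recovered more of a transcript than IgG, although it shares the same libraries. With IL-17, Il1rl1 did not pass the test between Arid5a and IgG precipitates (log2 difference 0.06 ± 0.22, edgeR adjusted p = 0.956), with an interval of 2 SE from -0.38 to 0.49. In medium it was 28.2 to 34.9 CPM in Arid5a and 39.7 to 54.2 CPM in IgG libraries, and the groups did not overlap. In the lower direction this held for 4.05% of all genes tested and 603 of the 5394 well-expressed genes. The Il1rl1 difference of -0.52 ± 0.22 had an unadjusted edgeR p of 0.0227 and an adjusted p of 0.298, and so did not pass the test. Well-expressed genes as a whole stood at a median of -0.19 in medium and 0.15 with IL-17 in these comparisons. With factors from those genes the Il1rl1 values were -0.34 in medium and -0.13 with IL-17.

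The expected count and FPKM (fragments scaled to transcript length and mapped total) of a gene together imply a transcript length, averaged over its isoforms. The lengths given here were also scaled per library. Each was divided by the median, over genes well counted in every library, of their length relative to its median over libraries. For Il1rl1 this length was 3469 ± 175 bases (SD, n = 4) in Arid5a IL-17, 3911 ± 458 (n = 4) in Arid5a medium, 3492 ± 251 (n = 3) in IgG IL-17 libraries and 3451 ± 449 (n = 4) in IgG medium libraries. The single libraries ran from 3093 to 4569 bases, and the ranges of all 4 groups overlapped. For Ripk2, by comparison, the scaled length stayed between 2469 and 2506 bases in every library (2389 to 2517 before scaling). The membrane and secreted forms were not resolved further in these tables.

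Ripk2 rose with IL-17 in the Arid5a precipitate. It held 509, 551, 527 and 364 counts in Arid5a IL-17 libraries 1 to 4 (107, 126, 101 and 103 CPM), against 163, 101, 112 and 199 counts in Arid5a medium libraries 1 to 4 (53.1, 41.7, 33.7 and 51.5 CPM). The lowest IL-17 library was above the highest medium library, as for 10.7% of all genes tested. The mean was 109 ± 11.3 CPM (SD, n = 4) in Arid5a IL-17 and 45.0 ± 9.06 CPM (n = 4) in Arid5a medium libraries, a 2.42-fold difference (log2 1.27 ± 0.20, edgeR adjusted p = 0.000113). It passed in all 15 fits that left out 1 library, with log2 values of at least 1.16. Factors from well-expressed genes gave 0.98 with an adjusted p of 0.00616.

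In the IgG precipitate, Ripk2 stood at 84.8, 72.5 and 74.2 CPM in IgG IL-17 libraries 2 to 4, against 32.0, 79.7, 49.1 and 47.7 CPM in IgG medium libraries 1 to 4. IgG medium 2, the shallowest library with 71 Ripk2 counts, lay among the IL-17 libraries, and the other medium libraries lay below them. The log2 difference was 0.63 ± 0.22 with an unadjusted p of 0.00674 and an adjusted p of 0.217, so the test was not passed over all libraries. Without IgG medium 2 it was 0.86 with an adjusted p of 0.0334. Without both IgG medium 2 and IgG IL-17 4, a removal chosen after seeing the data, it was 0.89 with an adjusted p of 0.0470. Between the antibodies, Ripk2 was higher in every Arid5a IL-17 library than in every IgG IL-17 library. So were 5.30% of all genes tested and 605 of the 5394 well-expressed genes. The log2 difference of 0.50 ± 0.21 did not pass (adjusted p = 0.481). The change of the antibody difference with IL-17 was 0.64 ± 0.30 (adjusted p = 0.279).

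Irak1, the kinase recruited by IRAK4, was the only other gene of the set to pass, again with IL-17 in the Arid5a precipitate. It stood at 73.0, 67.5, 47.7 and 43.0 CPM in Arid5a IL-17 libraries 1 to 4, against 37.5, 34.7, 32.5 and 37.0 CPM in Arid5a medium libraries 1 to 4. The groups did not overlap, again as for 10.7% of all genes in the higher direction, and the medium libraries differed little. The log2 difference was 0.71 ± 0.22 (edgeR adjusted p = 0.0442), from means of 57.8 ± 14.6 CPM in Arid5a IL-17 and 35.4 ± 2.29 CPM in Arid5a medium libraries (SD, n = 4 each). The call was lost without any 1 of Arid5a IL-17 1, 2 or 3 or Arid5a medium 1, 2, 3 or 4, with log2 values of 0.57 to 0.79 and adjusted p of 0.0619 to 0.235. It was also lost with library totals (0.45, adjusted p = 0.205) and with factors from well-expressed genes (0.39, adjusted p = 0.248).

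In the IgG precipitate Irak1 stood at 31.5, 44.1 and 38.8 CPM in IgG IL-17 libraries 2 to 4, against 47.5, 32.6, 59.6 and 49.0 CPM in IgG medium libraries 1 to 4. The groups overlapped through IgG medium 2, and the log2 difference was -0.34 ± 0.24 (adjusted p = 0.639). The IL-17 differences of the 2 precipitates had opposite signs, and their difference, 1.05 ± 0.32, did not pass over all libraries (adjusted p = 0.0975). It passed without Arid5a IL-17 4 (1.16, adjusted p = 0.0350), without IgG medium 2 (1.16, adjusted p = 0.0399) and without IgG medium 2 and IgG IL-17 4 together (1.20, adjusted p = 0.0411). The median of well-expressed genes for this difference was 0.34. Between the antibodies, Irak1 differed by 0.61 ± 0.23 with IL-17 (adjusted p = 0.436) and by -0.44 ± 0.22 in medium (adjusted p = 0.404). The Irak1 gene model (chromosome X, 74013914 to 74023921) overlaps the models of Mir718 and Mir5132.

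The other 2 IRAK kinase genes passed no test. Irak4, the kinase that acts first after MyD88, averaged 13.8 ± 1.11 CPM in Arid5a IL-17, 12.7 ± 2.55 in Arid5a medium, 12.7 ± 5.11 in IgG IL-17 and 10.9 ± 7.42 in IgG medium libraries. Its log2 differences in the 4 pairwise comparisons lay between 0.12 and 0.14, and none passed. Irak2, which sustains the signal alongside IRAK1, held 60, 77, 56 and 25 counts in Arid5a IL-17 libraries 1 to 4, against 34, 11 and 6 counts in IgG IL-17 libraries 2 to 4. In CPM these were 12.6, 17.5, 10.7 and 7.08 in Arid5a IL-17 and 7.28, 3.85 and 2.87 in IgG IL-17 libraries, so that Arid5a IL-17 4 lay just below the highest IgG library. The log2 difference of 1.31 ± 0.54 had an unadjusted p of 0.0206 and an adjusted p of 0.458. The IL-17 differences of Irak2 were 0.46 ± 0.47 in the Arid5a and -0.90 ± 0.55 in the IgG precipitate, and neither passed.

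No comparison of the adaptor gene Myd88 passed. It held 21.6, 15.04, 17.6 and 11.6 CPM in Arid5a IL-17 libraries 1 to 4, against 23.1, 25.6, 19.6 and 27.4 CPM in Arid5a medium libraries 1 to 4. In CPM the groups overlapped by Arid5a IL-17 1, whereas in FPKM, which is not TMM-scaled, they did not (7.06 to 11.5 in Arid5a IL-17 and 12.8 to 16.69 in Arid5a medium libraries). How many of all genes did not overlap in FPKM was not counted, so the Myd88 separation depends on the scaling and has no background share. The log2 difference was -0.53 ± 0.33 (adjusted p = 0.330). In the IgG precipitate it was 16.0 ± 7.55 CPM (SD, n = 3) with IL-17 and 18.7 ± 6.27 CPM (n = 4) in medium, a log2 difference of -0.20 ± 0.37 (adjusted p = 0.904).

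Among the receptor chains other than Il1rl1, none passed a test. Il1r1, the signalling receptor for IL-1, held 35.6 ± 6.16 CPM in Arid5a IL-17, 34.5 ± 5.02 in Arid5a medium, 33.9 ± 7.05 in IgG IL-17 and 29.3 ± 10.5 in IgG medium libraries. With IL-17 against medium its log2 difference was 0.04 ± 0.24 in the Arid5a precipitate, with an interval of 2 SE from -0.45 to 0.53, and 0.15 ± 0.27 in the IgG precipitate. The accessory chain gene Il1rap stood at 9.22, 8.20, 6.89 and 14.4 CPM in Arid5a IL-17 libraries 1 to 4, against 21.5, 9.91, 22.9 and 12.7 CPM in Arid5a medium libraries 1 to 4. Arid5a IL-17 4 lay within the range of the medium libraries and the other IL-17 libraries lay below it (log2 -0.80 ± 0.42, adjusted p = 0.251). In the IgG precipitate the Il1rap difference was 0.40 ± 0.47, and the change of the antibody difference was -1.20 ± 0.63 (adjusted p = 0.336).

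Il18r1 and the ligand gene Il33 were at the low end of the set. Il18r1 held 14, 11, 17 and 10 counts in Arid5a IL-17 libraries 1 to 4, against 15, 16, 20 and 19 in Arid5a medium libraries 1 to 4. In CPM the groups did not overlap (2.51 to 3.25 in Arid5a IL-17, 4.89 to 6.61 in Arid5a medium libraries), as for 9.25% of all genes in this direction. The log2 difference of -0.95 ± 0.66 did not pass (adjusted p = 0.396). In the IgG libraries Il18r1 ranged from 0.479 to 8.14 CPM with IL-17 and from 1.99 to 12.4 CPM in medium. Il33 held 7, 7, 24 and 12 counts in Arid5a IL-17 libraries, against 7, 18, 40 and 21 in Arid5a medium libraries, and 24, 11 and 0 in IgG IL-17 libraries, against 21, 2, 6 and 27 in IgG medium libraries. The ranges overlapped in both precipitates, and the log2 difference in the Arid5a precipitate was -1.29 ± 0.71 (adjusted p = 0.277). The 1492 receptor genes that are silent in most tissues also summed lower in Arid5a IL-17 1 to 3 than in every Arid5a medium library, as given above, and their part in these low counts was not tested.

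**Figure D2:**
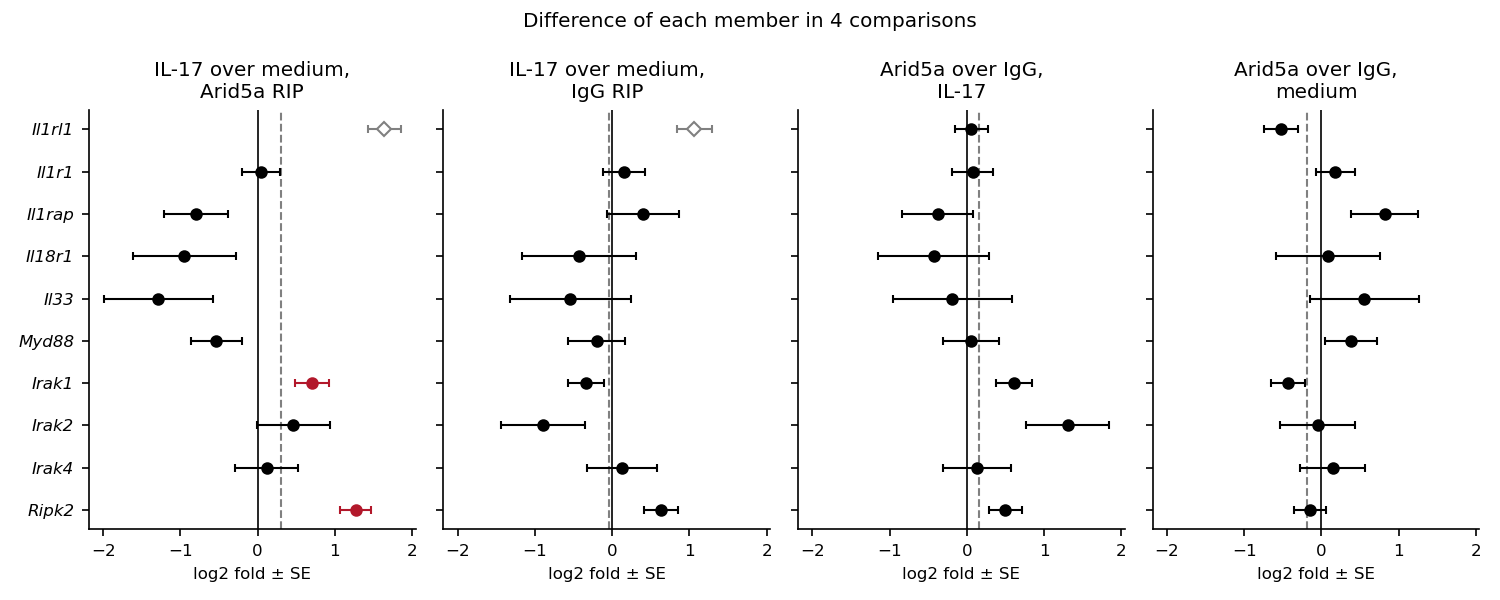
Log2 difference ± SE of each gene in the 4 pairwise comparisons. Red points passed at an adjusted p below 0.05, black points did not, open grey diamonds are the Il1rl1 values used for the choice and are not tested, and the dashed line is the median of 5394 well-expressed genes. Ripk2 (1.27) and Irak1 (0.71) are the 2 red points, both with IL-17 in the Arid5a precipitate.

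Over the 9 genes other than Il1rl1, IL-17 in the Arid5a precipitate gave 2 higher calls (Ripk2 and Irak1) and 0 lower calls, where 4.84% of all genes tested were called higher and 0.813% lower. Ripk2 and Irak1 also had groups that did not overlap, as had 10.7% of all genes in the higher direction, and Il18r1 did so in the lower direction, as had 9.25%. Among the 5394 well-expressed genes, which include Ripk2 and Irak1, 833 were called higher and 32 lower. Of these 5394 genes, 1564 did not overlap in the higher direction and 77 in the lower direction. The median log2 difference of the 9 genes was 0.04, against -0.12 over all genes tested and 0.30 over well-expressed genes. In the IgG precipitate edgeR called 0 of the 9, where 0.493% of all genes were called in either direction, 1 (Ripk2) had an unadjusted p below 0.05, where 11.1% of all genes had, and DESeq2 and limma on log2(FPKM + 1) called 0 as well. Their median there was -0.20, against 0.00 over all genes.

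Between the antibodies, edgeR called 0 of the 9 genes in medium, where 0.628% of all genes were called, and 0 with IL-17, where 0.0673% were. In medium 0 of the 9 had an unadjusted p below 0.05, where 12.8% of all genes had, and with IL-17 3 had (Irak1, Irak2 and Ripk2), where 8.95% of all genes had. For the change of the antibody difference with IL-17, edgeR called 0 of the 9, where 0.976% of all genes were called, and 2 (Irak1 and Ripk2) had an unadjusted p below 0.05, where 16.3% of all genes had. DESeq2 and limma on log2(FPKM + 1) also called 0 in each of these 3 comparisons. The 2 comparisons with IL-17 against medium and the 2 between antibodies share libraries, so the values of 1 gene across them are not independent.

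FPKM, which is scaled to transcript length, ranks the genes against each other. In Arid5a IL-17 libraries Ripk2 was highest (41.6 ± 3.96 FPKM), followed by Il1rl1 (26.7 ± 8.06), Irak1 (16.4 ± 3.80), Myd88 (9.09 ± 1.92), Il1r1 (7.30 ± 0.97), Irak4 (5.02 ± 0.28), Irak2 (3.86 ± 1.33), Il1rap (2.37 ± 0.91), Il33 (1.15 ± 0.64) and Il18r1 (0.73 ± 0.14; SD, n = 4 each). The ranges of Ripk2 and Il1rl1 did not overlap, nor did those of Irak1 and Myd88 or of Il1r1 and Irak4, whereas the other neighbours overlapped. In Arid5a medium libraries Il1rl1 stood at 8.90 ± 1.29 FPKM, below Ripk2 (19.6 ± 3.20), Myd88 (14.98 ± 1.97) and Irak1 (11.1 ± 0.79), and it overlapped Il1r1 (8.27 ± 1.15).

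In IgG IL-17 libraries Ripk2 (31.3 ± 3.53 FPKM) and Il1rl1 (27.2 ± 3.76) were again the highest and overlapped, and both lay above Irak1 (10.8 ± 1.86; n = 3). In IgG medium libraries Ripk2 led with 20.3 ± 7.51 FPKM, and Irak1 (12.9 ± 3.16), Il1rl1 (12.8 ± 1.50) and Myd88 (10.3 ± 3.01) were neighbours whose ranges overlapped (n = 4). Il18r1 and Il33 took the last 2 places in every group.

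**Figure D3:**
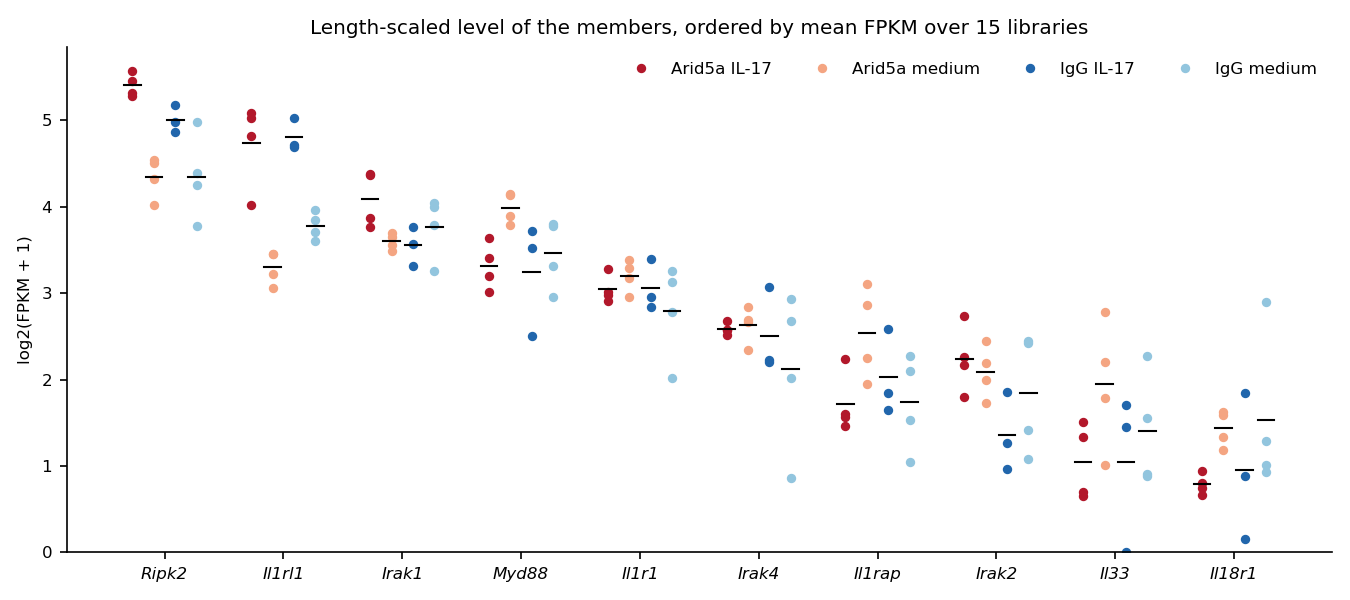
Log2(FPKM + 1) of the 10 genes in each library, ordered by their mean FPKM over the 15 libraries, with 1 point per library and a bar at each group mean. In the Arid5a precipitate Ripk2, Il1rl1 and Irak1 lie higher in every IL-17 than in every medium library and Myd88 and Il18r1 lower, and Il33 and Il18r1 take the last 2 places in every group. How many of all genes separate in this way in FPKM was not counted, and Myd88 overlaps in CPM.

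Of the related receptor genes near Il1rl1 on chromosome 1, Il1rl2, Il18rap, Il1r2 and Il18r1 were low and passed no test. Il1r1, described above, was not low. Il1rl2, the receptor for IL-36 cytokines, held 10.6 ± 3.88 CPM in Arid5a IL-17, 7.49 ± 1.49 in Arid5a medium, 7.40 ± 6.29 in IgG IL-17 and 8.31 ± 3.89 in IgG medium libraries. Il18rap, the accessory chain for IL-18, held 14.1 ± 5.10, 10.7 ± 5.93, 14.4 ± 4.11 and 7.17 ± 2.54 CPM in the same order of groups. Its IgG IL-17 libraries lay above all IgG medium libraries, again as in 4.27% of all genes, with a log2 difference of 0.97 ± 0.47 (unadjusted p = 0.0458, adjusted p = 0.438). The decoy receptor gene Il1r2 had 0 to 23 counts in a library. In the same IgG comparison the log2 difference of Il18r1, which begins closest to the end of Il1rl1, was -0.43 ± 0.74.

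A wider list of 56 IL-1, Toll-like receptor and NOD pathway genes was described next. Of these 52 were in the tables and 46 passed the filter. With IL-17 in the Arid5a precipitate 2 of the 46 rose and 0 fell (all genes: 4.84% and 0.813%), and the median log2 difference was -0.0045, with 23 positive and 23 negative values. Otud4, a deubiquitinase known to act on MyD88, averaged 238 ± 41.0 CPM in Arid5a IL-17 and 153 ± 5.05 CPM in Arid5a medium libraries (SD, n = 4 each; log2 0.64 ± 0.16, adjusted p = 0.0121). Ripk1, a kinase of TNF receptor and Toll-like receptor signalling, averaged 81.5 ± 4.73 CPM in Arid5a IL-17 and 54.1 ± 7.09 CPM in Arid5a medium libraries (log2 0.59 ± 0.18, adjusted p = 0.0425). For both, every IL-17 library was above every medium library, as for 8 of the 46 genes and 10.7% of all genes, while 1 of the 46 did not overlap in the lower direction (all genes: 9.25%). Of the 5394 well-expressed genes, which include Otud4 and Ripk1, 1564 did not overlap in the higher direction and 833 were called higher.

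Both calls depended on the scaling: with factors from well-expressed genes Otud4 gave 0.32 (adjusted p = 0.175) and Ripk1 0.29 (adjusted p = 0.317). The Otud4 call was lost without Arid5a IL-17 1, 2 or 3, and the Ripk1 call without these or any 1 of the 4 Arid5a medium libraries (adjusted p up to 0.0636 and 0.152). In these fits the log2 value of Otud4 was 0.59 to 0.61 and that of Ripk1 0.52 to 0.67. The list had 6 calls (4 higher and 2 lower) without Arid5a IL-17 4, and 4 without either IgG IL-17 4 or IgG medium 2. It had 8 (7 higher and 1 lower) without both of these IgG libraries, 10 (9 higher and 1 lower) in a fit to only the libraries compared, and 0 with library totals, with factors from well-expressed genes, with limma or without Arid5a IL-17 1, 2 or 3. In the other 4 comparisons edgeR called 0 of the 46 genes, with 5 (Arid5a against IgG in medium), 1 (the same with IL-17), 8 (IL-17 in the IgG precipitate) and 5 (the change of the antibody difference) at an unadjusted p below 0.05. Over all genes these shares were 12.8%, 8.95%, 11.1% and 16.3%. DESeq2 called Traf3 and Tlr2 higher and Il1rn lower with IL-17 in the IgG precipitate, where the edgeR adjusted p were 0.0861, 0.120 and 0.114, and it called 0 in the other 3 comparisons.

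Among the ligands and inhibitors of the list, Il1rn, the secreted antagonist of the IL-1 receptor, was the one counted most often, with 259 to 1040 counts in every library. It averaged 171 ± 33.6 CPM in Arid5a IL-17, 170 ± 25.6 in Arid5a medium, 132 ± 14.8 in IgG IL-17 and 216 ± 68.4 in IgG medium libraries, and no difference passed with edgeR. The ligand genes were close to the limit of detection. Il1a had 5.60 to 8.22 counts in Arid5a IL-17, 9.79 to 19.8 in Arid5a medium, 9 to 14 in IgG IL-17 and 0 to 3 in IgG medium libraries, and the edgeR adjusted p of its comparisons were 0.0615 to 0.623. Il1b reached 5 counts in a library, Il18 22 and the inhibitory receptor gene Sigirr 10, and these 3 did not pass the filter. Irak3, an inhibitor of IRAK signalling, had 3 to 33 counts, and Traf6, the ubiquitin ligase downstream of the IRAKs, 32 to 130 counts. Traf6 averaged 21.4 ± 2.66 CPM in Arid5a IL-17, 26.7 ± 2.90 in Arid5a medium, 20.7 ± 4.81 in IgG IL-17 and 34.4 ± 17.4 in IgG medium libraries, and neither it nor Irak3 passed a test.

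Genes with a pattern like that of Il1rl1 were ranked by the Pearson r of log2 CPM over the 15 libraries among 13749 genes. Genes with symbols that start with Gm and a digit or end in Rik were left out of this ranking. The closest were Itga5 (r = 0.95), an integrin chain that binds fibronectin, Nfatc1 (0.95), a calcium-regulated transcription factor, Vegfa (0.94), an angiogenic growth factor, Vcan (0.94), a matrix proteoglycan, and Zc3h12a (0.93), the RNase Regnase-1 that degrades inflammatory mRNAs. These r are descriptions over libraries that share treatment, antibody and depth. Within groups, that is over deviations from the 4 group means, they were 0.76 for Itga5, 0.88 for Nfatc1, 0.67 for Vegfa, 0.76 for Vcan and 0.43 for Zc3h12a. Of the genes of the set, Ripk2 had r = 0.78 (rank 314) and 0.12 within groups, and Irak1 0.56 (rank 1639) and 0.69 within groups.

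The IL-17 differences of these genes varied widely. Itga5 was at 246 ± 47.3 CPM in Arid5a IL-17, 124 ± 7.98 in Arid5a medium, 213 ± 8.35 in IgG IL-17 and 146 ± 24.0 in IgG medium libraries, log2 differences of 0.99 ± 0.15 in the Arid5a and 0.55 ± 0.16 in the IgG precipitate. Vcan was at 531 ± 86.2 CPM in Arid5a IL-17, 333 ± 18.5 in Arid5a medium, 477 ± 35.9 in IgG IL-17 and 391 ± 32.7 in IgG medium libraries, log2 differences of 0.67 ± 0.13 and 0.28 ± 0.14. These were smaller than the differences of Vegfa and Zc3h12a in both precipitates. Zc3h12a was at 58.1 ± 11.3 CPM in Arid5a IL-17, 8.49 ± 1.69 in Arid5a medium, 51.4 ± 5.61 in IgG IL-17 and 15.8 ± 4.12 in IgG medium libraries, log2 differences of 2.79 ± 0.26 in the Arid5a and 1.75 ± 0.27 in the IgG precipitate. Vegfa was at 465 ± 80.7 CPM in Arid5a IL-17, 106 ± 8.96 in Arid5a medium, 354 ± 30.0 in IgG IL-17 and 190 ± 56.4 in IgG medium libraries, log2 differences of 2.14 ± 0.17 and 0.91 ± 0.18. Nfatc1 was at 125 ± 21.2 CPM in Arid5a IL-17, 80.6 ± 8.64 in Arid5a medium, 146 ± 15.6 in IgG IL-17 and 85.8 ± 6.52 in IgG medium libraries, log2 differences of 0.64 ± 0.16 and 0.76 ± 0.17. All 5 genes had their lowest Arid5a IL-17 value in library 4, as had Il1rl1. They were picked for their likeness to Il1rl1 over these same libraries, so the shared pattern is a description and no separate result.

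**Figure D4:**
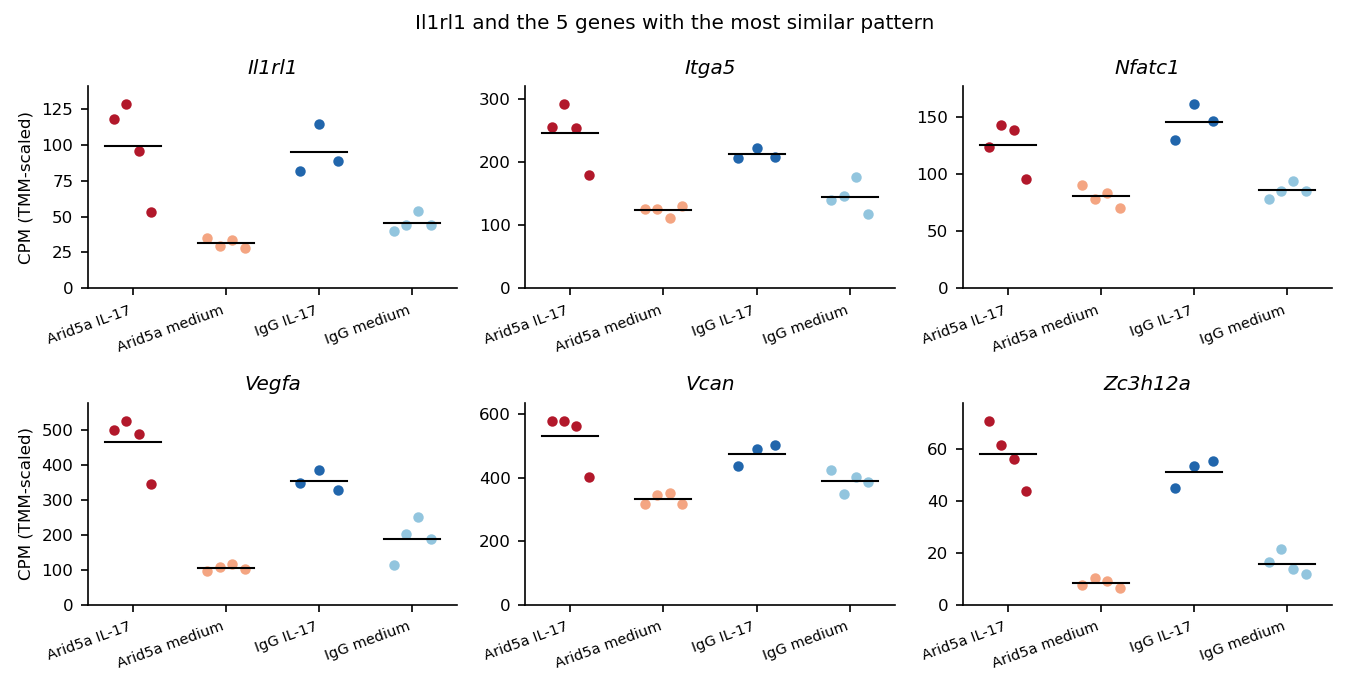
TMM-scaled CPM of Il1rl1 and the 5 genes with the highest Pearson r to it (0.93 to 0.95), 1 point per library with a bar at each group mean. In each panel the IL-17 groups lie above the medium groups of the same antibody, and Arid5a IL-17 4 is the lowest point of its group. The 5 genes were picked for their likeness to Il1rl1 over these same libraries, so the shared pattern is no separate result.

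As a measure of the stimulus, 3 genes known to respond to IL-17 were read in the same libraries. Cxcl1, a neutrophil chemokine, was at 134 ± 15.01 CPM in Arid5a IL-17, 6.39 ± 2.74 in Arid5a medium, 142 ± 58.1 in IgG IL-17 and 8.94 ± 2.89 in IgG medium libraries, with log2 differences of 4.36 ± 0.28 in the Arid5a and 3.89 ± 0.28 in the IgG precipitate (edgeR adjusted p = 8.42e-14 and 1.44e-11). Nfkbiz, which encodes the transcriptional cofactor IkB-zeta, gave 1.94 ± 0.20 and 1.48 ± 0.21 (adjusted p = 1.78e-08 and 9.55e-05), and the chemokine gene Ccl7 2.85 ± 0.18 and 1.32 ± 0.19 (adjusted p = 7.99e-14 and 9.55e-05). Arid5a itself held 10 to 131 counts in a library and passed no test. For Ccl7 the change of the antibody difference with IL-17 was 1.53 ± 0.26 (adjusted p = 0.0148), whereas those of Cxcl1 and Nfkbiz, 0.47 ± 0.39 and 0.46 ± 0.29, did not pass. The Ccl7 call was not kept with library totals, with factors from well-expressed genes or without Arid5a IL-17 1. In each of these fits 0 of all genes were called for this change. The median of well-expressed genes for it was 0.34.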

How the data were processed

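RIP-seq libraries of ST2 cells (15, in 4 groups of antibody and treatment) were grouped by their labels. The authors deposited expected counts per gene, not normalised, and FPKM (scaled to length and mapped total) of these genes. The submitters' processing notes name mm10, R 4.3.0, DESeq2 1.36.0, RSEM 1.3.1 and STAR 2.7.9; the annotation and strand setting are not given in the sources used here, so reads of overlapping genes (Irak1 with Mir718 and Mir5132, Il1rap with Gm20319, Il33 with Gm41832) may not be separable. Of the deposited expected counts, 2.66% to 10.3% in a library were not whole, and they were rounded.

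Robust quasi-likelihood models with 1 mean per group were fitted in edgeR 4.0.16 (R 4.3.3) to all 15 libraries, after filterByExpr and TMM scaling. A gene is called where its p, adjusted over all 17835 genes (Benjamini-Hochberg), is below 0.05, and every p is two-sided and from this test unless another tool is named. Values are TMM-scaled CPM, and intervals are 2 SE. The procedure was run on simulated counts: for IL-17 against medium in the Arid5a precipitate it recovered 29 of 100 genes changed 2-fold and 59 of 100 changed 4-fold, and called 1 unchanged gene of 16883 tested. The simulated counts came from 1 mean profile, with as many genes raised as lowered and no general shift of well-expressed genes. The real libraries had such a shift, so the simulation gives no rate of false calls for them.

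Alternatives were the removal of each library in turn, limma 3.58.1 on log2(FPKM + 1) or log2(FPKM + 0.1), DESeq2 1.42.0, a block for the replicate number, a fit to only the libraries compared, no filter, library totals and TMM factors from well-expressed genes. A fit without both IgG IL-17 4 and IgG medium 2 was added after seeing the data. Library pairs of a group differed by more than counting noise (chi-square per degree of freedom 4.56 to 22.0), so no pair was merged into 1 sample. This spread does not show that the libraries came from separate cultures, which the labels do not state. Library totals were 939139 to 5713913 counts, and a gene with few counts has correspondingly wide errors.

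The genes of the set and the lists were chosen with earlier results of these data known. Named beyond the 10 genes were each called gene of the pathway list and 10 further genes of it whatever their result (Il1a, Il1b, Il1rn, Il18, Il1r2, Il1rl2, Il18rap, Sigirr, Irak3 and Traf6). Also named were the 5 genes most like Il1rl1 (average log2 CPM of at least 2, without the Gm and Rik symbols), Cxcl1, Nfkbiz, Ccl7 and Arid5a. Tlr2 and Traf3 were named after their values were seen. Motifs were searched on both strands of the 250 bases before each RefSeq start. Gene coordinates are those of RefSeq on GRCm38.p6, the assembly that mm10 names. The marker lists for epithelial and endothelial cells summed to 8.81 to 86.5 and 6.38 to 38.7 CPM, and the myeloid list to 11.0 to 29.6 CPM.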

Additional observations from a re-analysis of the deposited data

How the results depend on the processing

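Of the 5 comparisons, the call of Ripk2 with IL-17 in the Arid5a precipitate was kept under every alternative run. Its log2 value was 0.98 to 1.298 outside the removals of single libraries. The call of Irak1 there was not kept: besides the values given above, limma gave 0.50 on log2(FPKM + 1) and 0.53 on log2(FPKM + 0.1), and 0.70 (adjusted p = 0.0671) came with the replicate block. The genes other than Il1rl1 called in that comparison thus numbered 1 with library totals, factors from well-expressed genes, the block and either limma setting. They numbered 1 to 2 with 1 library left out. With both IgG IL-17 4 and IgG medium 2 removed they numbered 1 with IL-17 in the IgG precipitate (Ripk2, 0.89) and 1 for the change of the antibody difference (Irak1, 1.20). With 1 library left out these numbered 0 to 1 each. The cause was not tested.

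The replicate numbers did not pair the libraries (r of deviations over same-numbered pairs -0.12 to 0.19, above 0.1 in 1 of 21 pairs). With the number as a block, all genes called numbered 49 for the antibodies in medium, 5 with IL-17 and 85 for the change of the antibody difference, against 112, 12 and 174. Ripk1 (0.60) lost its call under the block, and Il18r1 between the antibodies with IL-17 changed sign to 0.14.

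Ripk1 and Otud4 lost their calls with library totals (0.35 and 0.38), with limma on log2(FPKM + 1) (0.36 and 0.39) and on log2(FPKM + 0.1) (0.38 and 0.40), and, using well-expressed genes for the factors, at 0.29 and 0.32. Counts over all genes moved widely. For the antibodies in medium they were 348 with DESeq2, 13 with library totals, 0 with factors from well-expressed genes, 1 with only the libraries compared, 1 with either limma setting, 15 after that double removal and 0 to 350 with 1 library left out. For the antibodies with IL-17 they were 71 with DESeq2, 0 with factors from well-expressed genes, 26 without a filter, 5 with either limma setting and 2 to 76 with 1 library left out. For IL-17 in the Arid5a precipitate (1008) they were 301 with library totals, 321 with factors from well-expressed genes, 2977 with only the libraries compared, 113 and 75 with limma, 2600 after that double removal and 308 to 2257 with 1 library left out. For IL-17 in the IgG precipitate (88) they were 320 with DESeq2, 16 with only the libraries compared, 45 and 40 with limma and 43 to 257 with 1 library left out. For the change of the antibody difference they were 405 with DESeq2, 0 with library totals or factors from well-expressed genes, 6 and 2 with limma, 309 after that double removal and 0 to 715 with 1 library left out. Where library totals or well-expressed factors moved the split of higher and lower calls for IL-17 in the Arid5a precipitate, it was 156 to 145 and 115 to 206, against 863 to 145.

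Sign changes touched only differences that passed no test. In medium between the antibodies, Irak2 became 0.14 (library totals and well-expressed factors), 0.25 and 0.38 (limma), Ripk2 0.035 and 0.034 (the same 2 scalings), 0.00013 (limma, 0.1) and 0.084 (double removal), Il18r1 -0.096 and -0.032 (limma) and Irak4 -0.095 (double removal). With IL-17, Il1rl1 became -0.084 and -0.13 with the 2 scalings and -0.074 and -0.078 with limma, Il1r1 -0.058, -0.094, -0.019 and -0.020, Myd88 -0.067 and -0.11 with the scalings, Irak4 -0.031 with well-expressed factors, Il33 0.00018 and 0.56 and Il18r1 0.018 with limma. For IL-17 in the Arid5a precipitate, Il1r1 became -0.042 (DESeq2), -0.21 and -0.27 (scalings), -0.16 and -0.18 (limma), and Irak4 -0.12, -0.18, -0.048 and -0.055. In the IgG precipitate Il18r1 became 0.60 after that double removal. For the change of the antibody difference, Irak4 became 0.0096 without a filter and 0.13 after that double removal, Il18r1 0.050 with limma and Il1r1 0.0095 after that double removal.

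With 1 library left out, signs changed in medium for Il18r1 (-0.24 to 0.65), Irak2 (-0.28 to 0.24), Irak4 (-0.087 to 0.51) and Ripk2 (-0.33 to 0.092). Between the antibodies with IL-17 they changed for Il1rl1 (-0.089 to 0.26), Il1r1 (-0.039 to 0.26), Il1rap (-0.63 to 0.045), Il18r1 (-0.88 to 0.92), Il33 (-0.69 to 0.46), Myd88 (-0.27 to 0.36) and Irak4 (-0.031 to 0.52). For IL-17 they changed for Il1r1 (-0.071 to 0.12) in the Arid5a precipitate, and in the IgG precipitate for Il1r1 (-0.015 to 0.27), Il18r1 (-1.76 to 0.14), Myd88 (-0.46 to 0.16) and Irak4 (-0.22 to 0.49). For the change of the antibody difference they changed for Il1r1 (-0.23 to 0.090), Il18r1 (-1.08 to 0.83) and Irak4 (-0.38 to 0.38). Il18r1 and Il33, with 0 to 40 counts in a library, are the most limited by depth.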
